A study of Rattus norvegicus with 8 samples.

Results

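The mitochondrial genes for subunits of respiratory complexes III, IV and V were examined in the hippocampus of rats of 2 strains, SHR (spontaneously hypertensive) and WKY (Wistar-Kyoto). Blood pressure rises with age in SHR rats, while WKY rats, bred from the same stock, stay normotensive and serve as controls. The members were chosen by Ensembl gene ID: mt-Co1 (ENSRNOG00000034234), mt-Co2 (ENSRNOG00000030371) and mt-Co3 (ENSRNOG00000030700) for complex IV, mt-Atp6 (ENSRNOG00000031979) and mt-Atp8 (ENSRNOG00000033299) for complex V, and mt-Cyb (ENSRNOG00000031766) for complex III. These are 6 of the 32623 genes in the count table, and all 6 were among the 16867 genes that passed the filter on low counts. RNA was sequenced from hippocampal tissue of animals aged 32 weeks, with 4 libraries per strain. The labels name no treatment, allele or diet, and strain is the only factor they give between the groups. Whether each library is a different animal is not stated in the labels. The p-values therefore weigh the strain difference against library-to-library spread, of which some may be technical.

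The mitochondrial genome encodes a few core subunits of the respiratory chain, and the nucleus encodes the rest. It is transcribed as long precursor RNAs, which are cut at the transfer RNAs between the genes to release the messenger RNAs. The 6 members lie on the heavy-strand precursor in the order mt-Co1, mt-Co2, mt-Atp8, mt-Atp6, mt-Co3 and mt-Cyb, with genes of complex I among them. In brain tissue the respiratory chain supplies most of the ATP that neurons use for ion pumping and synaptic transmission. In whole tissue, fewer cells of a type and less RNA per cell cannot be told apart.

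The libraries held 45048841 to 49560687 counts in SHR and 53045139 to 53699673 in WKY, with no overlap between the strains, so library depth and strain cannot be told apart by group. Each member had between 147700 and 2000026 counts in a library. Of all libraries, 2 need naming before the results. Leaving out WKY replicate 4 took the number of genes called between the strains from 6 to 458, and SHR replicate 1 stood apart from the other SHR libraries in the members themselves. The strain differences are given with and without them. The IDs could not be paired with symbols beyond the members, so the hippocampal identity of the tissue and the presence of other cell types could not be checked with marker genes.

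Together the 6 genes took a large part of each library. Their share of all counts was 10.001% in SHR replicate 1, 7.51% in SHR replicate 2, 7.36% in SHR replicate 3 and 7.75% in SHR replicate 4. In WKY replicates 1 to 4 it was 8.19%, 9.44%, 8.47% and 8.73%. SHR replicate 1 was thus above every WKY library and the other SHR libraries were below every WKY library. The mean share was 8.16 ± 1.24% over the 4 SHR libraries and 8.71 ± 0.535% over the 4 WKY libraries (SD). The difference of the means, SHR minus WKY, was -0.551 percentage points. Without SHR replicate 1 the SHR mean was 7.54 ± 0.199% (SD, n = 3) and the difference -1.17 points. It shrank to -0.335 points when SHR replicate 2 was left out, to -0.286 for SHR replicate 3 and to -0.307 for WKY replicate 2. SHR replicate 1 was also the library with the smallest total, 45048841 counts, and the lowest scaling factor, 0.967. The share is taken from raw counts, so the scaling factor enters the CPM given below and not the share. The part of the smaller total in the higher share was not tested.

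In complex IV, cytochrome c oxidase, mt-Co1 encodes the catalytic subunit with the haem and copper site at which oxygen is reduced. Its level was 40521, 29207, 28448 and 31036 CPM (counts put on one library size by the TMM method) in SHR replicates 1 to 4. In WKY replicates 1 to 4 it was 33083, 38068, 34261 and 34538 CPM. SHR replicate 1 was the highest of the 8 libraries, and the other SHR libraries were the lowest. The log2 fold change of SHR over WKY was -0.12 ± 0.12 (SE; edgeR quasi-likelihood test, adjusted p = 0.744), with a 95% interval from -0.38 to 0.15.

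The mt-Co2 gene encodes the subunit that takes up electrons from cytochrome c through a copper centre. Its level was 11482, 8112, 7878 and 8548 CPM in SHR replicates 1 to 4 and 8768, 10071, 8514 and 9424 CPM in WKY replicates 1 to 4. The strains overlapped, since SHR replicate 1 was above all WKY libraries and SHR replicate 4 was just above WKY replicate 3. Its log2 fold change, SHR over WKY, came to -0.030 ± 0.13 (SE) with an adjusted p of 0.951 in edgeR and a 95% interval from -0.31 to 0.25.

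The mt-Co3 gene encodes a core subunit of the oxidase that carries no redox centre. It stood at 13976, 11358, 10842 and 11443 CPM in SHR replicates 1 to 4 and at 11303, 13278, 12090.3 and 13061 CPM in WKY replicates 1 to 4. WKY replicate 1 lay among the low SHR libraries. Of the 6 genes it varied least over the 8 libraries, with a 1.29-fold range from lowest to highest. For this gene the log2 fold change came to -0.063 ± 0.10 (SE) with an adjusted p of 0.851 in edgeR and a 95% interval from -0.29 to 0.16.

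In complex V, the ATP synthase, mt-Atp6 encodes the membrane subunit that forms the proton path beside the rotating ring, and mt-Atp8 a small membrane subunit of the stator. Both proteins are read from one messenger RNA, in reading frames that overlap. The sources used here do not say how reads over the overlap were divided between these genes. The level of mt-Atp6 was 15675, 10607, 10227.0 and 11049.8 CPM in SHR replicates 1 to 4 and 12814, 15495, 13492 and 12586 CPM in WKY replicates 1 to 4. That of mt-Atp8 was 5182, 3179.7, 3076 and 3453 CPM in SHR replicates 1 to 4 and 3984, 4757, 4261 and 4076 CPM in WKY replicates 1 to 4. In both genes SHR replicate 1 was above every WKY library in CPM and SHR replicates 2 to 4 were below every WKY library. As a share of all counts, mt-Atp6 was slightly lower in SHR replicate 1 (1.51%) than in WKY replicate 2 (1.53%).

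These genes had the lowest strain estimates of the 6. The log2 fold change was -0.19 ± 0.14 for mt-Atp6 (SE; edgeR, adjusted p = 0.617), with a 95% interval from -0.51 to 0.12. For mt-Atp8 it was -0.20 ± 0.16 (SE; edgeR, adjusted p = 0.657), with a 95% interval from -0.55 to 0.15. The range over the 8 libraries was 1.68-fold for mt-Atp8, the widest of the 6, and 1.53-fold for mt-Atp6.

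In complex III, mt-Cyb encodes cytochrome b, the haem-bearing subunit at which ubiquinol is oxidised, and it is the only subunit of that complex made in the mitochondrion. Its level was 16648, 11292, 10894 and 11957 CPM in SHR replicates 1 to 4 and 11966, 13801, 12495 and 13715 CPM in WKY replicates 1 to 4. SHR replicate 1 exceeded the next library 1.21-fold, the widest such gap among the 6 genes. SHR replicate 4 and WKY replicate 1 were nearly equal. The strain difference came to -0.033 ± 0.13 on the log2 scale (SE) with an adjusted p of 0.95 in edgeR and a 95% interval from -0.33 to 0.27.

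**Figure D1:**
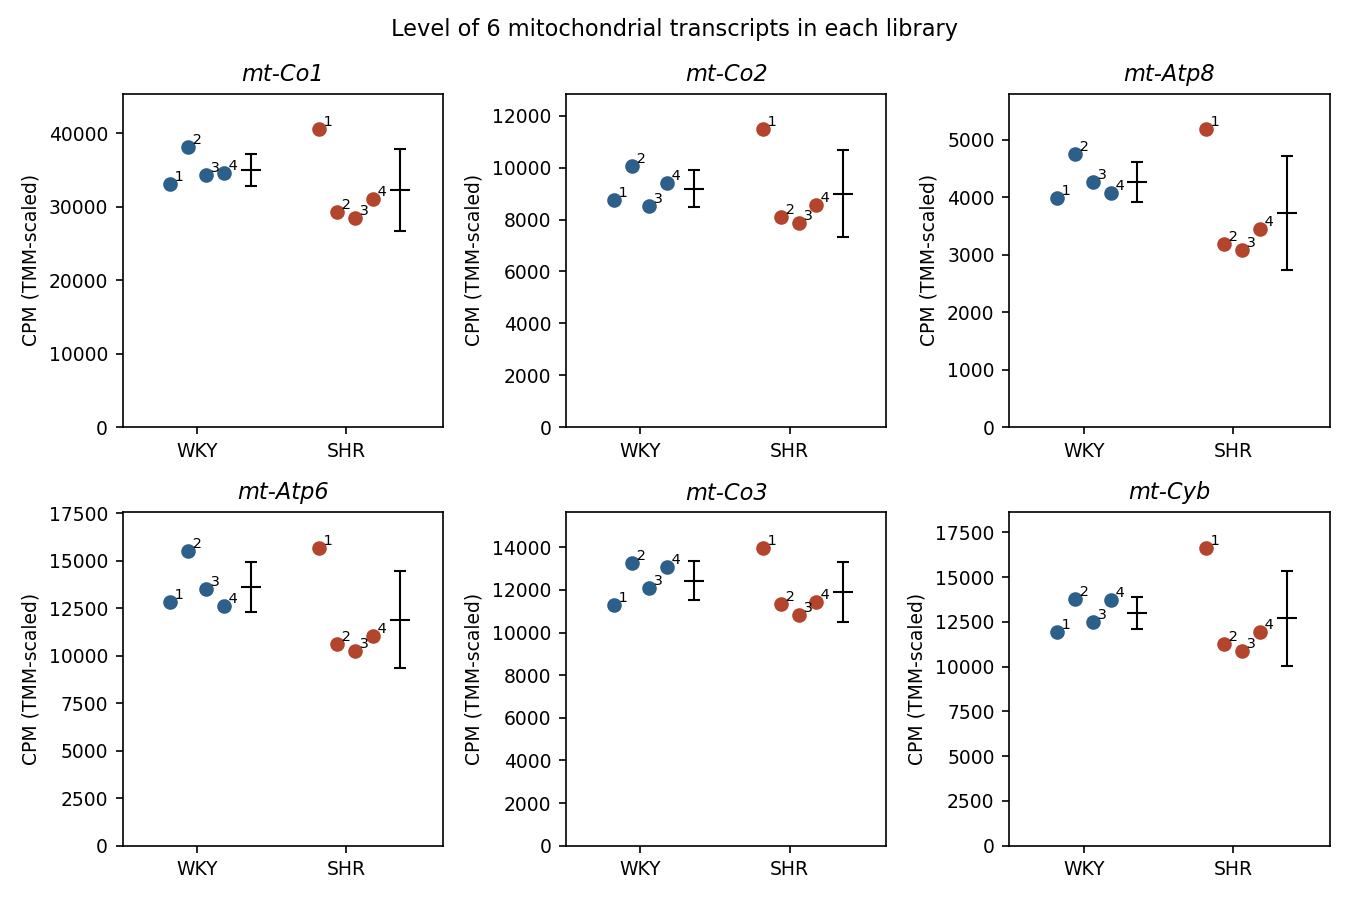
Level of each of the 6 transcripts in every library, in TMM-scaled CPM on axes that start at 0. Points are libraries with their replicate number, and the bar beside each group is the mean with its SD (n = 4). SHR replicate 1 is the highest of the 8 libraries in all 6 genes, and SHR replicate 3 is the lowest.

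Over all 8 libraries none of the 6 genes passed the test in edgeR (0 of 6 at an adjusted p under 0.05). Over all genes tested, 0.0356% were called. At an unadjusted p under 0.05 the count was also 0 of 6, where 12.1% of all genes passed, and the smallest unadjusted p was 0.198. DESeq2 and limma-voom also called 0 of 6. DESeq2 called 1.98% of all genes, and limma-voom called 5 of 16867. All 6 estimates were below 0, as were 50.8% of those of all genes, with a median log2 fold change of -0.089 against -0.0044 over all 16867 genes. The estimates are not independent, because the levels of the 6 genes varied together from library to library. The intervals still allow changes from 0.683-fold, the lower end for mt-Atp8, to 1.20-fold, the upper end for mt-Cyb.

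The strains' ranges overlapped in all 6 genes, so 0 of 6 were separated by strain, where 6.72% of all genes were. The overlap came from SHR replicate 1 in mt-Co1, mt-Atp8, mt-Atp6 and mt-Cyb. In these 4 genes SHR replicates 2 to 4 were all below every WKY library in CPM, a pattern that 6.46% of all genes had. For mt-Cyb this rests on 11956.7 CPM in SHR replicate 4 against 11965.5 CPM in WKY replicate 1. As a share of all counts the order was reversed, 1.19652% against 1.19607%. In CPM, SHR replicate 1 was the highest of the 8 libraries in 6 of 6 genes, as it was in 10.2% of all genes. For mt-Atp6 this rests on the scaling. As a share of all counts it was 1.51% in SHR replicate 1 and 1.53% in WKY replicate 2. In CPM both patterns together were present in 4 members and in 0.474% of all genes. By share of all counts, mt-Atp6 and mt-Cyb did not show both. The patterns were looked for after the values were seen and are given as a description.

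Relative to the mean of the other SHR libraries, SHR replicate 1 was higher 1.37-fold in mt-Co1, 1.40-fold in mt-Co2, 1.60-fold in mt-Atp8, 1.47-fold in mt-Atp6, 1.25-fold in mt-Co3 and 1.46-fold in mt-Cyb. The spread within SHR depended on this library. The SD of log2 CPM over the 4 SHR libraries was 0.16 to 0.35 in the members, with a median of 0.27, against a median of 0.20 over all genes. Over SHR replicates 2 to 4 it was 0.042 to 0.086, with a median of 0.062, against 0.18 over all genes. In WKY the members' median was 0.11, against 0.20 over all genes. The 82 genes whose log2 CPM averaged 10 or more include the members. The median SD of these 82 was 0.11 in SHR, 0.095 over SHR replicates 2 to 4 and 0.13 in WKY. SHR replicate 1 was left out for standing apart in the members, so a fall in their SD follows from that choice.

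Without SHR replicate 1 all 6 estimates moved down, to log2 fold changes of -0.24 for mt-Co1, -0.17 for mt-Co2, -0.40 for mt-Atp8, -0.35 for mt-Atp6, -0.15 for mt-Co3 and -0.19 for mt-Cyb. For mt-Atp8 that is 0.760-fold, with a 95% interval from 0.659 to 0.876, and for mt-Atp6 0.783-fold, with an interval from 0.676 to 0.909. For mt-Co1 it is 0.847-fold, with an interval from 0.745 to 0.962. These 3 of 6 had an unadjusted p under 0.05, where 11.3% of all genes did. SHR replicate 1 was singled out for standing apart in these genes and was the highest SHR library in all 6. Leaving it out therefore lowers every estimate by construction, a choice that the 11.3% does not carry. After adjustment over 17102 genes 0 of 6 passed in edgeR, and the smallest adjusted p was 0.321, for mt-Atp8. In that comparison 0.00585% of all genes were called.

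Without WKY replicate 4 the estimates stayed near those of all 8 libraries, from -0.23 for mt-Atp6 to -0.0064 for mt-Cyb. In edgeR 0 of 6 passed at an adjusted p under 0.05, while 2.69% of all genes were called. At an unadjusted p under 0.05 it was also 0 of 6, where 17.2% of all genes passed. With both libraries left out, mt-Atp8 was at -0.42 (edgeR, adjusted p = 0.0835) and mt-Atp6 at -0.39 (edgeR, adjusted p = 0.105). Again 0 of 6 passed after adjustment, where 1.34% of all genes were called. At an unadjusted p under 0.05 the count was 3 of 6, where 16.6% of all genes passed. This last setting was chosen after the data were seen.

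**Figure D2:**
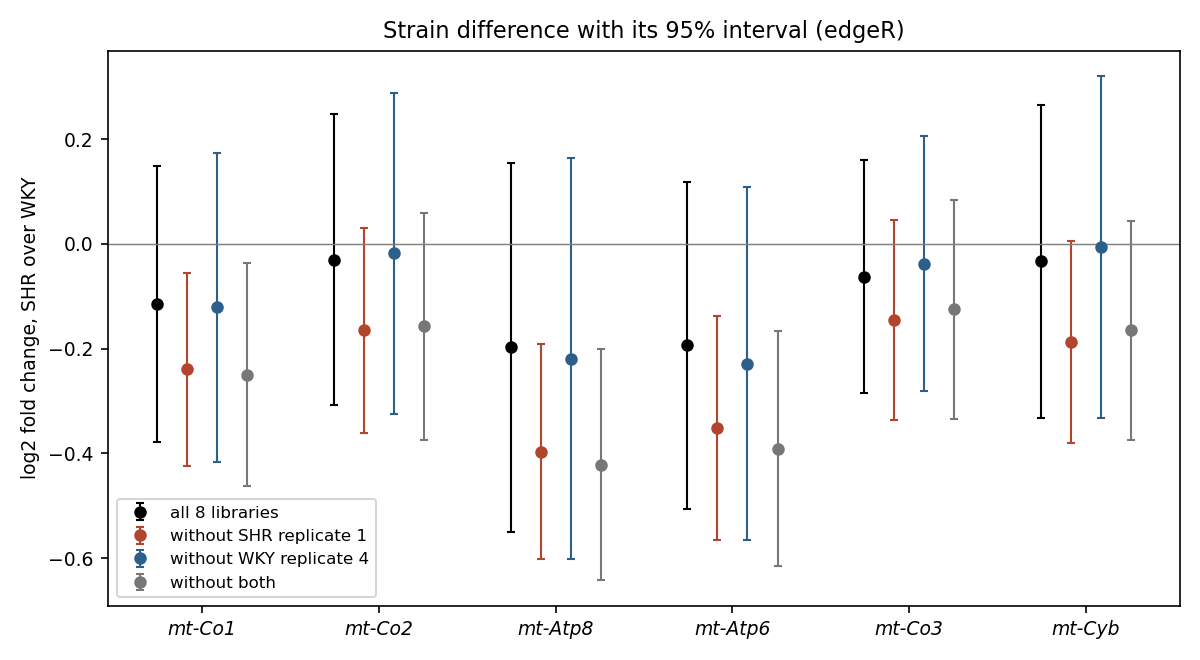
Log2 fold change of SHR over WKY for each gene from edgeR, with its 95% interval, over all 8 libraries, without SHR replicate 1, without WKY replicate 4 and without both. Over all 8 libraries every interval includes 0. Without SHR replicate 1, the highest SHR library in every gene, those of mt-Co1, mt-Atp8 and mt-Atp6 lie below 0 before any adjustment for the number of genes.

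The 6 genes followed one another closely over the libraries. Averaged over the 6, log2 CPM lay 0.32 above the mean of the 8 libraries in SHR replicate 1 and 0.19 above it in WKY replicate 2. It lay at -0.20, -0.25 and -0.12 in SHR replicates 2 to 4, at -0.035 in WKY replicate 1, at 0.022 in WKY replicate 3 and at 0.062 in WKY replicate 4. WKY replicate 2 was the highest of the WKY libraries in all 6 genes. The root mean square distance of a member from this mean pattern was 0.020 for mt-Co1, the nearest to it, to 0.081 for mt-Atp8, on the log2 scale over 8 libraries. The complex V genes swung most widely, at the low end in SHR replicates 2 to 4 and at the high end in WKY replicate 2.

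Among the 13350 other genes whose log2 CPM averaged 1 or more, the median distance from the members' pattern was 0.26. That median is not a like background, because each member is part of the mean pattern and most other genes had far lower counts. Of those 13350 genes, 12 were no farther from the pattern than mt-Atp8. The nearest was ENSRNOG00000057056, at a distance of 0.055, with 52.0, 38.5, 37.4 and 42.3 CPM in SHR replicates 1 to 4 and 42.6, 47.6, 43.0 and 48.1 CPM in WKY replicates 1 to 4. The next was ENSRNOG00000017057, at a distance of 0.058, with 14.8, 10.4, 10.2 and 12.2 CPM in SHR and 12.2, 13.2, 12.3 and 12.9 CPM in WKY. Both were highest in SHR replicate 1 and lowest in SHR replicate 3, as the members were. No symbol was matched to either ID, and their distances were chosen as the smallest, so they are a description.

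**Figure D3:**
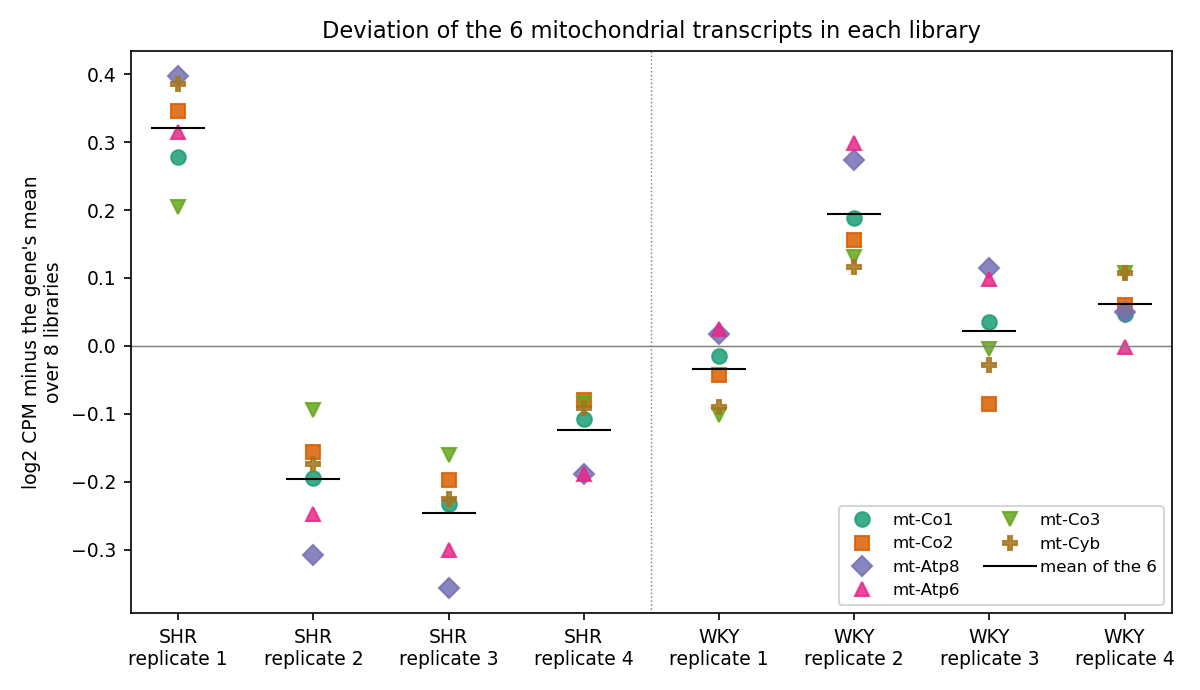
Log2 CPM of each gene minus its own mean over the 8 libraries, with the mean of the 6 genes as a bar in each library. SHR replicate 1 (mean 0.32) and WKY replicate 2 (mean 0.19) are high in all 6 genes, and SHR replicates 2 to 4 are low in all 6.

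Ratios between genes within a library do not depend on how the libraries are scaled. They were compared between members that follow each other in the order given above, and between mt-Cyb and mt-Co1, the last and the first of the 6. Genes of complex I lie between mt-Co3 and mt-Cyb. The raw counts were not divided by length, so the size of a ratio says nothing of which transcript is the more abundant. There were 6 ratios, and the smallest p that the exact permutation test of 4 against 4 libraries can give is 0.0286.

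The ratio of mt-Co2 to mt-Co1, neighbouring genes of complex IV, was 0.283, 0.278, 0.277 and 0.275 in SHR replicates 1 to 4. It was 0.265, 0.265, 0.249 and 0.273 in WKY replicates 1 to 4. Every SHR library, SHR replicate 1 included, was above every WKY library. The mean was 0.278 ± 0.00346 over the 4 SHR libraries and 0.263 ± 0.0102 over the 4 WKY libraries (SD), a ratio 1.06-fold higher in SHR (exact permutation test, two-sided p = 0.0286; Benjamini-Hochberg adjusted p = 0.171 over the 6 ratios). After adjustment the difference did not pass. The log2 difference was 0.084 over all 8 libraries, 0.075 without SHR replicate 1, 0.10 without WKY replicate 4 and 0.094 without both. Of all other genes that passed the filter and had a count in every library, 3.14% had a ratio to mt-Co1 that separated the strains in either direction. That share is not a like background, because mt-Co2 followed mt-Co1 over the libraries and most other genes did not.

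Within the counts of the 6 genes, mt-Co2 made up 11.0 to 11.1% in SHR and 10.0035 to 10.8% in WKY. For the other 5 genes this share overlapped between the strains. From the lowest to the highest library it spanned 1.03-fold for mt-Co1, 1.11-fold for mt-Co2, 1.16-fold for mt-Atp8, 1.14-fold for mt-Atp6, 1.14-fold for mt-Co3 and 1.11-fold for mt-Cyb. The share of all counts held by the 6 together spanned 1.36-fold.

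The ratio of mt-Atp8 to mt-Co2 was 0.451, 0.392, 0.390 and 0.404 in SHR replicates 1 to 4 and 0.454, 0.472, 0.500 and 0.432 in WKY replicates 1 to 4. SHR replicate 1 lay among the WKY libraries, and the ranges overlapped through it and WKY replicate 4. The mean ratio was 0.409 ± 0.0286 for SHR against 0.465 ± 0.0287 for WKY (SD, 4 libraries each; exact permutation test, two-sided p = 0.0571, adjusted p = 0.171). The log2 difference was -0.18 over all 8 libraries, -0.23 without SHR replicate 1 and -0.22 without WKY replicate 4. Without both it was -0.27, with no overlap left (two-sided exact permutation p = 0.10, the least that 3 against 3 libraries allow). The overlap lay between SHR replicate 1 and WKY replicate 4 alone, so leaving out either of them ended it. With both left out, the least p followed by construction and is no support for a difference.

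The ratio of mt-Atp6 to mt-Atp8, which are parts of the same messenger RNA, was 3.02, 3.34, 3.32 and 3.20 in SHR replicates 1 to 4 and 3.22, 3.26, 3.17 and 3.09 in WKY replicates 1 to 4. The strains overlapped widely (exact permutation test, two-sided p = 0.686, adjusted p = 0.823). The log2 difference was 0.017 ± 0.037 (SE), and it was 0.047 without SHR replicate 1, 0.0027 without WKY replicate 4 and 0.033 without both.

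The ratio of mt-Co3 to mt-Atp6, which lie side by side on the precursor, was 0.892, 1.07, 1.06 and 1.04 in SHR replicates 1 to 4. It was 0.882, 0.857, 0.896 and 1.04 in WKY replicates 1 to 4. Here SHR replicate 1 lay with WKY replicates 1 to 3, and WKY replicate 4 lay with SHR replicates 2 to 4. The mean ratio was 1.01 ± 0.0833 for SHR against 0.918 ± 0.0813 for WKY (SD, 4 libraries each; exact permutation test, two-sided p = 0.143, adjusted p = 0.214). The log2 difference was 0.14 over all 8 libraries, 0.20 without SHR replicate 1 and 0.20 without WKY replicate 4. Without both it was 0.27, with no overlap left (exact permutation test, two-sided p = 0.10). Both libraries were left out after their place on this ratio was known.

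The ratio of mt-Cyb to mt-Co3 was 1.19 in SHR replicate 1 and 0.994, 1.005 and 1.04 in SHR replicates 2 to 4. In WKY it was 1.03 to 1.06. The strains overlapped (exact permutation test, two-sided p = 0.943, adjusted p = 0.943), and without SHR replicate 1 the log2 difference changed sign, from 0.015 to -0.043. It was 0.017 without WKY replicate 4 and -0.041 without both.

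The ratio of mt-Cyb to mt-Co1, the last and first of the 6 genes, was 0.411, 0.387, 0.383 and 0.385 in SHR replicates 1 to 4. In WKY replicates 1 to 3 it was 0.362, 0.363 and 0.365, below every SHR library, and in WKY replicate 4 it was 0.397, within the SHR range. Over all 8 libraries the ratio was 1.05-fold higher in SHR, with a log2 difference of 0.076 ± 0.040 (SE; exact permutation test, two-sided p = 0.114, adjusted p = 0.214). Without WKY replicate 4 the log2 difference was 0.11 (two-sided exact permutation p = 0.0286, which no test of 4 against 3 libraries can undercut; adjusted p = 0.0857). WKY replicate 4 was the only WKY library within the SHR range, so leaving it out separated the strains by construction. That p is therefore no support for a difference. Without SHR replicate 1 the log2 difference was 0.052, and without both libraries 0.085.

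**Figure D4:**
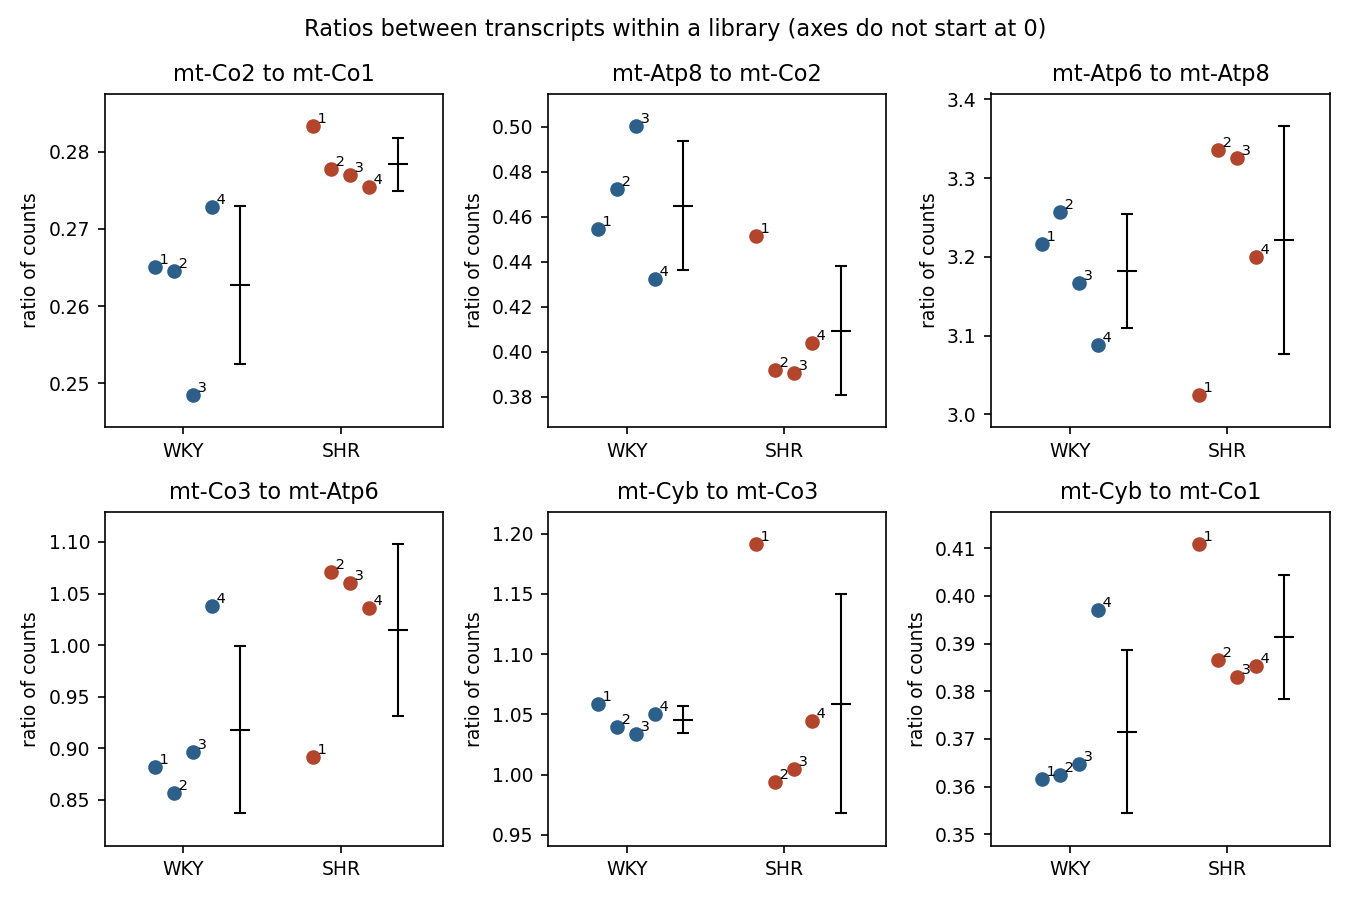
Ratios of raw counts between genes within a library, for members that follow each other in genome order and for the last against the first, on axes that do not start at 0. Points are libraries with their replicate number, and bars are the mean with its SD (n = 4). For mt-Co2 to mt-Co1 every SHR library is above every WKY library, and for mt-Cyb to mt-Co1 WKY replicate 4 (0.397) lies in the SHR range.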

How the data were processed

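RNA was sequenced from hippocampal tissue in 8 libraries, 4 per strain, grouped by sample title. Read counts per gene were deposited by the authors in 1 matrix, and the 8 single-library tables repeat its values. The headers of 4 of these tables carry other replicate numbers than the titles: 5 and 6 for WKY replicates 3 and 4, and 4 and 6 for SHR replicates 3 and 4. Titles were used throughout. The submitters' processing notes name the rn6 genome and, as tools, StringTie 1.3.4d, HISAT2 2.0.4 and cutadapt 1.9. The sources used here do not give the annotation release, strand setting, library selection or rule for reads shared with nuclear copies of mitochondrial genes. The member symbols came with the list of IDs. The reference table matched 0 of 32623 IDs and held 0 of the 6 members, so no position, length or sequence is given, and 0 of 14 gene lists (pathways and cell type markers) were tested. Beside the members, the rule named the 2 genes nearest to them in pattern.

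The strains were compared over the whole table with the quasi-likelihood F test of edgeR 4.0.16 under R 4.3.3, with TMM scaling, the default low-count filter and strain as the only term. P-values were adjusted by Benjamini-Hochberg, with a threshold of 0.05. The SE was the log2 fold change divided by the square root of F, and log2 CPM carried a prior count of 2. Ratios of raw counts were compared by exact permutation of libraries. The code was tested on simulated data with 200 changed genes. Alternatives were other scalings, filters and tools (DESeq2 1.42.0, limma 3.58.1), a block on the replicate number, and leaving out each library. The members, lists and tests were chosen with earlier results of these data known.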

Additional observations from a re-analysis of the deposited data

Results flagged for a closer look

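In 26 sets of 4 libraries of a strain (the level of each gene, their summed share and the 6 ratios), the highest or lowest library was screened for a gap to its neighbour above Dixon's 95% critical value, as a part of the range. Chance picks about 1 set in 20, and these sets share libraries and genes. There were 4 such values. SHR replicate 1 was far above the other SHR libraries in mt-Atp6 (15675 CPM, a gap of 0.849 of the range) and in the summed share of the 6 genes (10.001% of counts, 0.851 of the range). The log2 ratio of mt-Cyb to mt-Co1 was far above that of the other libraries of its strain in SHR replicate 1 (-1.28, 0.864 of the range) and in WKY replicate 4 (-1.33, 0.911 of the range).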

How the results depend on the processing

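Each gene was recomputed under 18 alternatives and each ratio under 10. Of the 108 values of the genes, 0 had an adjusted p under 0.05. Over the whole table the number of genes called ranged from 1, as with the replicate block, to 458 without WKY replicate 4. Scaling, filter and tool moved no estimate across 0. Leaving out each library in turn gave log2 fold changes of -0.24 to -0.047 for mt-Co1, -0.17 to 0.041 for mt-Co2, -0.40 to -0.10 for mt-Atp8, -0.35 to -0.12 for mt-Atp6, -0.15 to -0.0084 for mt-Co3 and -0.19 to 0.046 for mt-Cyb. The sign changed for mt-Co2 and mt-Cyb without SHR replicate 2, SHR replicate 3 or WKY replicate 2. The log2 ratio difference changed sign for mt-Atp6 to mt-Atp8 (-0.00020 to 0.047, negative without SHR replicate 2) and for mt-Cyb to mt-Co3 (-0.043 to 0.044, negative without SHR replicate 1, and -0.041 with WKY replicate 4 left out too). The cause was not tested. The other ratios kept their sign. None passed after adjustment, which a lone ratio at the smallest possible p could not have done. The share of counts, SHR minus WKY, was -1.17 (without SHR replicate 1) to -0.286 percentage points (without SHR replicate 3) with each library left out.

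By title number, same-numbered libraries of the strains did not deviate together: the correlation of their deviations over all genes was -0.093, -0.0034, -0.16 and -0.15 for replicates 1 to 4, and 0 of 8 libraries correlated best with their own number. With the replicate block the log2 fold changes were -0.13 for mt-Co1, -0.045 for mt-Co2, -0.23 for mt-Atp8, -0.21 for mt-Atp6, -0.067 for mt-Co3 and -0.053 for mt-Cyb. In edgeR 0 of 6 passed (smallest adjusted p = 0.736), where 1 of 16867 genes was called. At an unadjusted p under 0.05 it was 0 of 6, where 8.51% of all genes passed. With 4 pairs the ratio tests cannot go below p = 0.125 (exact sign-flip test). Without SHR replicate 1 the SE of the log2 fold change fell from 0.16 to 0.091 for mt-Atp8 and from 0.13 to 0.085 for mt-Cyb. That library was singled out for standing apart in these genes, so a fall in the SE follows from that choice.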
